A study of Mus musculus with 15 samples.

Results

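The genes described here are 6 transcription factors of fat cell formation, the nuclear receptor gene Pparg, the C/EBP genes Cebpb and Cebpd, the early B cell factor genes Ebf1 and Ebf2, and the zinc finger gene Zfp423. They were taken by symbol from the 8446 rows of the deposited expression table, and all 6 had a row of their own. Their levels are given for each of 15 single cells, numbered 1 to 15, together with the combinations found in each cell and the genes whose levels followed theirs. They were Tomato-positive cells of inguinal white fat, taken from adult Prrx1-CreERT;Tomato mice on a C57BL/6 background that had received daily tamoxifen for 3 days (2 mg for each 30 g of weight). Prrx1 encodes a homeobox factor of the mesenchyme, and the Cre recombinase made under its control marks cells for good once tamoxifen has been given, so that a Tomato-positive cell need not express Prrx1 when it is collected. Prrx1 itself was detected in 12 of the 15 cells, with a median of 4.65 on the log2(FPKM + 1) scale. Cells were released with collagenase II (2 mg/ml, 1 h, 37 °C), sorted for Tomato and picked one by one under a fluorescence microscope. All cells belong to 1 group, with no untreated or Tomato-negative cells in the samples analysed here, and the labels name no animal, so that an unknown number of mice stands behind them. The cells were therefore described one by one, as 1 sample, and no test between cells was made.

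PPARγ, the product of Pparg, is a nuclear receptor that binds DNA together with a retinoid X receptor and switches on the genes of lipid uptake and storage, and it is the central factor of adipocyte differentiation. C/EBPβ and C/EBPδ are leucine zipper factors induced early in adipogenesis by hormonal and cAMP signals, and in cultured preadipocytes they act before Pparg and the related gene Cebpa. EBF1 and EBF2 mark fat cell precursors and take part in the activation of Pparg, EBF2 with a known role in brown and beige adipocytes. ZFP423 is a zinc finger factor of preadipocyte commitment that sensitises cells to bone morphogenetic proteins and, in mature white fat, restrains the thermogenic programme by binding EBF2.

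The sequences in front of 2 of the genes are shown as context: the Cebpb promoter beside those of Fos and Dusp1, immediate early genes whose levels are compared with Cebpb further on, and the third Pparg start, which carries matches to the C/EBP motif. No result on the levels was derived from them. RefSeq promoter windows of the GRCm38.p6 build were found for 4 of the 6 genes (3 for Pparg, 1 for Cebpb, 2 each for Ebf1 and Zfp423), and each sequence gives the 250 bases before the gene start in the direction of transcription. Cebpb lies at chr2:167688665-167688914 on the plus strand, Fos at chr12:85473640-85473889 on the plus strand and Dusp1 at chr17:26508473-26508722 on the minus strand. The third Pparg window lies at chr6:115421816-115422065 on the plus strand. Capitals mark TGACG or its reverse complement CGTCA, the core of a cAMP response element, in the first 3 sequences, and the C/EBP letters TTGCNNAA or TTNNGCAA in the fourth.
Cebpb: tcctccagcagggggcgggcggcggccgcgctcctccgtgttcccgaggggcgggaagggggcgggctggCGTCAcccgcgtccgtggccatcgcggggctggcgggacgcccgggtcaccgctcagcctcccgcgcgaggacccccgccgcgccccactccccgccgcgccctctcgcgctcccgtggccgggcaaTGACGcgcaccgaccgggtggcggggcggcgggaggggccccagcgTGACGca
Fos: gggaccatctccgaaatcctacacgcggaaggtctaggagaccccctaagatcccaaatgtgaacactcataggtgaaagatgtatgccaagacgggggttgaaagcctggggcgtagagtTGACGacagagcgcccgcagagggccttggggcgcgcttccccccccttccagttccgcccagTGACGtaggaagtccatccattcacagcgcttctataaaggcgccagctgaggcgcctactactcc
Dusp1: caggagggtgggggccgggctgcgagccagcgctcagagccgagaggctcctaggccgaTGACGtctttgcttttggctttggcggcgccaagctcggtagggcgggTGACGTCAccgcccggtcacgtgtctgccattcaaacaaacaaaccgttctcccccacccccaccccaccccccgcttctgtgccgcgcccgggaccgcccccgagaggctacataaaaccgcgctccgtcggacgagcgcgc
Pparg: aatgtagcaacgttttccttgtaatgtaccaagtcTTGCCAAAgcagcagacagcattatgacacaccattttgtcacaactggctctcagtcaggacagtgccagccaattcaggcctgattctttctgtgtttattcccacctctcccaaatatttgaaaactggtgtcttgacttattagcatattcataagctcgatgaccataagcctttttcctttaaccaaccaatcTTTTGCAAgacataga
The Cebpb sequence held 3 matches to the cAMP core, with first bases 180, 53 and 7 bases before the gene start. Fos held 2, at 129 and 66 bases, and Dusp1 held 3, at 191, 143 and 140 bases, of which the last 2 overlap as TGACGTCA. Of all 32851 RefSeq windows of this length 17.77% held the core on either strand and 3.90% held it more than once. Of the 13 immediate early genes with a window, 8 held it. The third Pparg window held 2 C/EBP matches, 215 and 16 bases before its start, letters found in 9.56% of all windows. The other 2 Pparg windows and both Ebf1 windows held none, and 1 of the 2 Zfp423 windows held 1. An EBF palindrome (0.78% of windows) and the STAT letters TTCNNNGAA (7.02%) were found in no window of these 4 genes. A match is a run of letters and says nothing of binding in these cells.

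Levels are deposited as log2(FPKM + 1), where FPKM counts fragments scaled to transcript length and to the size of the library, and a gene is called detected at 1 FPKM or more, which is 1.0 on this scale. The authors' values were already set to the same distribution in all cells, so that every cell holds 4369 rows at 1 FPKM or more and no total count or depth is known. The number of rows at a cell's lowest value still differed, between 930 in cell 8 and 1974 in cell 11, with a median of 1385. An exact 0 may be a missed molecule or a failed estimate, and such a gene is said to be listed at 0. The library kit reads the 3' end while FPKM divides by length, which lowers the values of long genes. Cells 5 and 13 stood apart from the rest. Of the 10 mural cell markers 5 had a row, and their mean level was 8.72 in cell 5 and 5.83 in cell 13, against at most 2.37 in the other cells. The 6 cell cycle genes with a row averaged 9.07 in cell 13, against at most 3.09 in the others. Cell 13 also had the highest mean of the 2 endothelial genes with a row, 5.48. This mean rests on Esam, at 10.90, since Tek stood at 0.06 there. Esam was also high in cell 5, at 7.83. Cell 12 had the highest mean of the 5 mature adipocyte markers with a row, 3.70, against at most 2.07 in the others. Pnpla2 stood at 7.50, Scd1 at 7.05 and Fasn at 3.18 there, while Acaca (0.12) and Cfd (0.64) were below the threshold. Csf1r, the one immune marker with a row, was detected in 4 cells and highest in cell 2 at 6.39.

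Cebpd was the factor with the highest median level. It reached the threshold in 14 of 15 cells (93.3%, exact Clopper-Pearson 95% interval 68.1% to 99.8%, which like the other intervals covers counting error only), with a lowest value of 0.61 in cell 13, a median of 6.53 and a highest value of 9.24 in cell 10. Cell 13 was the single cell without it, since the next lowest value was 4.91, in cell 7, and cells 9 and 10 were the highest. Cebpd (ENSMUSG00000071637, chromosome 16, 15887286 to 15891031, plus strand of GRCm38, GENCODE M21) overlaps exons of Spidr on the other strand by 562 bases. Spidr was highest in cell 10 as well, at 6.02, but was at 5.16 in cell 3 and listed at 0 in cell 12, where Cebpd stood at 6.53. Over the 15 cells Spidr had a Spearman rho of 0.49 with Cebpd, where the 95th percentile of all genes was 0.44. No source used here says whether counting was by strand, so reads from the shared bases cannot be assigned to either gene.

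Cebpb was detected nearly as widely as Cebpd, at lower levels. It was found in 13 of 15 cells (86.7%, 95% interval 59.5% to 98.3%), with a lowest value of 0.33 in cell 11, a median of 3.32 and a highest value of 6.74 in cell 10. Cells 9, 10 and 13 were above 6, and cells 7 and 11 were below the detection threshold. The levels in cells 1 and 12, 1.14 and 1.11, lay just above the threshold, and at 5 FPKM or more Cebpb was found in 9 cells. Cebpb exceeded Cebpd in 1 cell only, cell 13, where it stood at 6.09 and Cebpd at 0.61. Cebpb (ENSMUSG00000056501, chromosome 2, 167688915 to 167690418, plus strand) shares 312 exonic bases with Tmem189 on the other strand. Tmem189 was detected in 4 cells: cell 6 (4.39), cell 11 (4.08), cell 13 (3.44) and cell 15 (1.04). In the other cells with a high Cebpb level, such as cells 9 and 10, Tmem189 stood at 0.17 and 0.21.

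Ebf1 was the one factor detected in all 15 cells (100%, 95% interval 78.2% to 100%), with a lowest value of 3.21 in cell 2, a median of 5.94 and a highest value of 9.31 in cell 5. All but cell 5 lay between 3.21 and 7.0, and its SD over cells, 1.43 around a mean of 5.79, was the smallest of the 6. The cell that held the highest Ebf1 level was the one with the highest mural markers: Rgs5 and Higd1b, which mark pericytes, stood at 10.18 and 10.98 in cell 5, and Acta2, smooth muscle actin, at 10.23. In cell 13, the other cell with mural markers, Rgs5 stood at 6.90, Higd1b at 10.68 and Acta2 at 0.45, and Ebf1 was at 4.97, below its median. Over the 15 cells Ebf1 and the mean of the mural markers had a Spearman rho of 0.42, and the part of mural identity in the Ebf1 level was not tested. Ebf1 (ENSMUSG00000057098, chromosome 11, 44617317 to 45008091, plus strand) has the longest transcript of the 6, at 5981 bases.

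Ebf2 appeared in 13 of 15 cells (86.7%, 95% interval 59.5% to 98.3%), with a lowest value of 0.14 in cell 8, a median of 4.36 and a highest value of 6.14 in cell 1. Its values fell into a higher set of 8 cells between 4.36 and 6.14 (cells 1, 3, 4, 5, 6, 7, 11 and 15) and a lower set of 7 cells between 0.14 and 2.52. Of the lower set 5 cells were still above 1 FPKM, and cells 10 and 13 only just, at 1.18 and 1.19. At 5 FPKM or more Ebf2 was detected in 8 cells (53.3%), so that the share of cells with Ebf2 depends on the threshold. Ebf1 exceeded Ebf2 in all 15 cells. Ebf2 (ENSMUSG00000022053, chromosome 14, 67233292 to 67430918, plus strand) shares 424 exonic bases with Gm10860, an antisense transcript not analysed here.

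Zfp423 was the least detected of the factors. It was found in 5 of 15 cells (33.3%, 95% interval 11.8% to 61.6%), with values from 0 to 6.38 and a median of 0.08. Cell 10 was the highest at 6.38, followed by cell 1 at 4.47, cell 12 at 2.75, cell 11 at 2.22 and cell 2 at 1.57. In each of the other 10 cells it stood at 0.13 or lower, and at 5 FPKM or more it was found in 3 cells. Zfp423 (ENSMUSG00000045333, chromosome 8, 87661810 to 87959595, minus strand) has a longest transcript of 4907 bases, so that the length division weighs on its values too.

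Pparg had the widest range. It passed the threshold in 7 of 15 cells (46.7%, 95% interval 21.3% to 73.4%), with values from 0 to 9.29 and a median of 0.90. The highest levels were those of cells 13 (9.29), 14 (6.25), 6 (5.78), 12 (5.50) and 8 (4.19). Cells 3 and 15 were detected at 1.29 and 1.07, cell 11 missed the threshold at 0.90, and the remaining cells stood at 0.22 or lower. Most Pparg-positive cells thus lay far above the threshold, and the count of cells was 5 at 5 FPKM or more. The cell with the highest Pparg level, cell 13, was also the cell with cell cycle genes, where Cdk1, the mitotic kinase, stood at 11.34, and with mural markers. The part of either in its Pparg level was not tested. Without that cell the highest Pparg value was 6.25, in cell 14, where the mural mean was 0.61 and the cell cycle mean 1.96. Pparg (ENSMUSG00000000440) spans 115360951 to 115490399 on the plus strand of chromosome 6.

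By median, the levels ran from Cebpd (6.53) and Ebf1 (5.94) through Ebf2 (4.36) and Cebpb (3.32) to Pparg (0.90) and Zfp423 (0.08). Several neighbours in this order did not differ beyond the spread over cells. Cebpd exceeded Ebf1 in 10 of 15 cells, Cebpb exceeded Ebf2 in 7, and Pparg exceeded Zfp423 in 9. When the division by transcript length was undone with the longest annotated transcript, the medians were 8.50 for Ebf1, 8.42 for Cebpd, 6.68 for Ebf2, 3.86 for Cebpb, 1.50 for Pparg and 0.34 for Zfp423. Ebf1 then passed Cebpd, and the rest of the order was kept. Among all 8446 rows, ranked by their mean over cells, Cebpd stood at percentile 91.8, Ebf1 at 89.4, Cebpb at 74.1, Ebf2 at 72.9, Pparg at 58.1 and Zfp423 at 29.7. Of the 6 factors 4 were detected in at least 8 cells, against 46.8% of all rows.

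**Figure D1:**
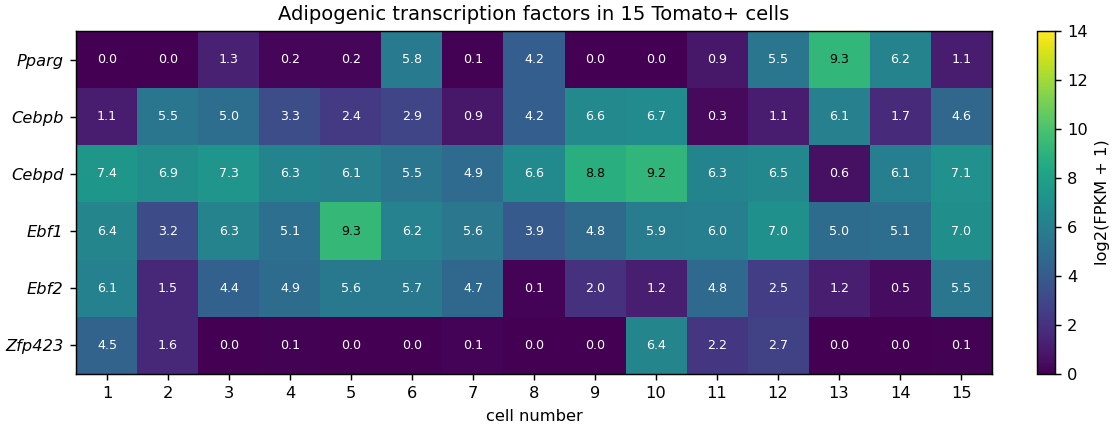
Levels of the 6 factors (down) in each of the 15 Tomato-positive cells (across, by cell number), in log2(FPKM + 1), with the value printed in each square and darker squares for lower values. Cebpd and Ebf1 are high in nearly every cell, Cebpd drops out in cell 13 at 0.61, Pparg is high in cells 6, 8, 12, 13 and 14, and Zfp423 in cells 1 and 10.

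The factors were found in 8 different combinations. Every cell detected at least 3 of the 6: 1 cell held 3, 7 cells held 4, 6 cells held 5, and cell 12 alone held all 6. The combination of Cebpb, Cebpd, Ebf1 and Ebf2 was present in 10 cells. It stood alone in cells 4, 5 and 9, with Zfp423 in cells 1, 2 and 10, with Pparg in cells 3, 6 and 15, and with both in cell 12. Cell 7 held Cebpd, Ebf1 and Ebf2 without the other factors, and cell 11 held these and Zfp423. Cells 8 and 14 had Pparg, Cebpb, Cebpd and Ebf1 without Ebf2, and cell 13 had Pparg, Cebpb, Ebf1 and Ebf2 without Cebpd. The most abundant factor was Cebpd in 9 cells, Ebf1 in cells 5, 6, 7 and 12, and Pparg in cells 13 and 14. Cell 6 was the one cell with 5 of the factors at 5 FPKM or more, and the others had 3 or 4.

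All 7 cells with Pparg also had Cebpb, while 6 cells had Cebpb without Pparg. Since Cebpb was detected in 13 of all 15 cells, this overlap says little about the pair, whose rho was -0.23. Pparg and Zfp423 were found together in cell 12 only, where they stood at 5.50 and 2.75. That cell also had the highest mean of the mature adipocyte markers. The 6 other Pparg-positive cells had Zfp423 values of 0.09 or lower, and the 4 other Zfp423-positive cells had Pparg values of 0.90 or lower. In cells 4, 5, 7 and 9 neither was detected. With 7 and 5 positive cells of 15, this is a description of these cells.

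Ebf1 and Ebf2 varied together most closely among the 15 pairs of factors. Their Spearman rho over the 15 cells was 0.68, and it stayed between 0.63 and 0.75 when any one cell was left out. Ebf2 stood at percentile 99.5 of the genes ranked by rho with Ebf1, and Ebf1 at percentile 99.4 of those ranked by rho with Ebf2, among 7424 genes detected in at least 3 cells. The cells with low Ebf2 held an Ebf1 level of 3.21 to 7.0, and those with high Ebf2 one of 5.11 to 9.31, so the Ebf1 ranges overlapped. All correlations here share the same libraries and the same normalization across cells, and with 15 cells and 7424 genes the ends of any ranking lie far from 0.

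Pparg and Cebpd ran against each other. Their rho was -0.61, between -0.72 without cell 7 and -0.51 without cell 13, and their Pearson correlation was -0.69. Cebpd stood at percentile 1.23 of the genes ranked by rho with Pparg. Cell 13, with Pparg at its highest and Cebpd at its lowest, is the extreme of both, and cells 9 and 10, with Cebpd at 8.76 and 9.24, had Pparg listed at 0. When all values below 1 FPKM were treated as equal, rho was -0.43. Pparg and Zfp423 had a rho of -0.43, between -0.63 and -0.34 when 1 cell was left out.

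Cebpb and Cebpd had a rho of 0.44, which was 0.65 without cell 13 and 0.31 without cell 9. Their Pearson correlation over all cells was 0.13. In cell 13 Cebpb was high and Cebpd low. Cebpb had a rho of -0.42 with Ebf1 and -0.42 with Ebf2: the 4 cells with the highest Cebpb levels, 10, 9, 13 and 2, had Ebf2 at 1.18, 1.98, 1.19 and 1.55. Cebpd followed neither, with a rho of 0.05 with Ebf1 and -0.07 with Ebf2. The relation of Pparg to the EBF genes depended on the measure. Its rho was 0.13 with Ebf1, where the Pearson correlation was -0.13. With Ebf2 its rho was -0.13, but the Pearson correlation was -0.42, and rho was -0.33 when values below 1 FPKM were treated as equal.

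**Figure D2:**
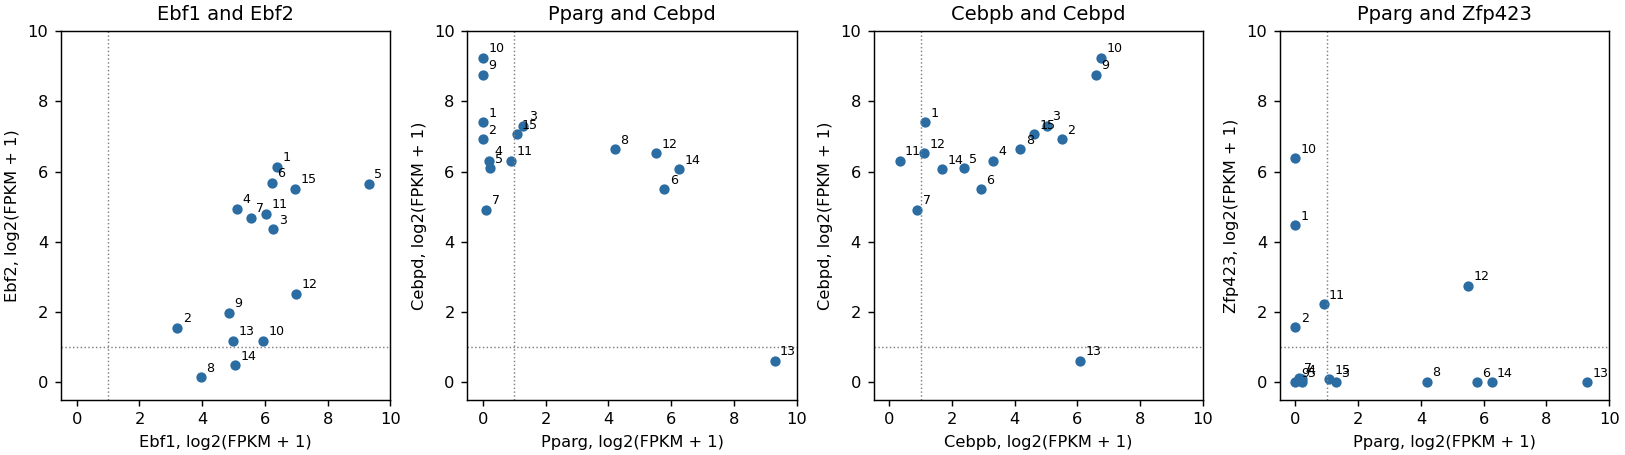
Levels of 4 pairs of factors in log2(FPKM + 1), 1 point for each of the 15 cells with its cell number, and dotted lines at the detection threshold of 1 FPKM. Ebf1 and Ebf2 run together (rho 0.68), Pparg and Cebpd against each other (-0.61), cell 13 lies apart from the Cebpb and Cebpd trend, and only cell 12 lies above both lines for Pparg and Zfp423.

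The close relatives of these factors differed in how widely they were found. Of the C/EBP genes outside the 6, Ddit3, whose product CHOP pairs with and inhibits C/EBP proteins, was detected in 13 cells with a median of 5.18 and a highest value of 8.91 in cell 13. Cebpz was detected in 8 cells and Cebpg in 6, highest in cell 15 at 5.83 and 6.14. Cebpa and Cebpe were not analysed here. Ebf3 was detected in cells 5 (5.18), 15 (3.52), 4 (1.64) and 13 (1.22). Cell 5 was thus the highest for both Ebf1 and Ebf3.

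Partners of PPARγ were sparse. Rxra and Rxrb, which encode retinoid X receptors, were detected in 4 cells each. Of the 7 Pparg-positive cells, cells 8, 12, 13 and 15 had Rxra, at 1.63, 3.00, 1.60 and 3.35, and cell 15 had Rxrb, at 6.15. Cells 3, 6 and 14 had Pparg without either, although both genes may have been missed at these levels. Ppara, the receptor of fatty acid oxidation in liver, stood at 8.04 in cell 14 and 1.31 in cell 12 and was below 1 in all other cells. Ppard was detected in 3 cells, with a highest value of 2.54.

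Among the partners of ZFP423, its paralogue gene Zfp521 was detected in cells 1, 3 and 5, highest in cell 1 at 4.47, and only there together with Zfp423. Zfp521 is known as a repressor of adipogenesis that binds EBF1, and its rho was 0.66 with Ebf1 and 0.57 with Ebf2, values that rest mostly on ranks below the detection threshold. Zfp467, a zinc finger gene known to favour adipocyte over bone cell formation, was at 7.85 in cell 12 and 7.17 in cell 5, with a rho of 0.60 with Ebf1. Id2 and Id3, targets of bone morphogenetic protein signalling, were detected in all 15 cells, and Id1 in 12. Id1 was highest in cells 13 and 5, at 9.48 and 8.64, and had a rho of -0.57 with Zfp423. Id2 had a rho of 0.61 with Cebpd, both being high in cell 9. Over the 13 of these genes compared with it, Zfp423 had a median rho of -0.04, with 6 above 0 and 7 below.

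The level of Cebpb followed the immediate early genes, the transcription factor and phosphatase genes switched on within minutes of a stimulus. Of 18 such genes 17 had a row and 11 were detected in all 15 cells. All 17 had a rho above 0 with Cebpb, with a median of 0.44, whereas 45.5% of the 7424 genes compared were above 0 and their median was -0.03. A rho of 0.5 or more was found for 6 of the 17, against 2.60% of all genes: Dusp1, a phosphatase of MAP kinases (0.71), Atf3, a stress factor (0.64), Fosb (0.59), Ier2 (0.54), Fos (0.53) and Jun (0.51). These genes also vary with one another, so they are not 17 separate observations. In the 3 cells with the highest Cebpb levels, 10, 9 and 13, Dusp1 stood at 9.85, 10.06 and 9.52, and in the 3 with the lowest, 11, 7 and 12, at 7.40, 8.06 and 6.78. Atf3 did not follow throughout, since cell 3 had Cebpb at 5.03 and Atf3 at 2.96.

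Cebpd had rho above 0 with 15 of the 17 immediate early genes, against 50.4% of all genes, and a median of 0.32, and 1 gene, Fosb at 0.54, was at 0.5 or more, against 2.77% of all genes. Ebf2 ran the other way, with 14 of 17 below 0, where 52.5% of all genes were above 0, and a median of -0.39, and 4 at -0.5 or less, against 3.26% of all genes. These were Junb (-0.70), Jun (-0.69), Atf3 (-0.64) and Fos (-0.61). In cell 1, the highest for Ebf2, Junb stood at 3.43, its lowest value. Junb lay between 7.09 and 9.78 in the 7 cells of the lower Ebf2 set and between 3.43 and 7.86 in the 8 cells of the higher set, so the ranges overlapped. Without cells 1, 11 and 14, which had the most rows at their lowest value, the Ebf2 median was -0.24. The medians were -0.22 for Ebf1, -0.12 for Zfp423 and -0.02 for Pparg. A list of genes of the glucocorticoid and cAMP response, the hormonal signals that induce Cebpb and Cebpd in culture, was also widely detected. Of the 19 with a row 16 were found in at least 8 cells, against 46.8% of all rows. The list also holds Il6 with genes of its signalling (Il6st, Socs3, Stat3 and Jak1), and Dusp1 and Nr4a1, already counted as immediate early genes. Sgk1, a glucocorticoid-induced kinase, reached 10.26 in cell 10, above every factor there, but had a rho of 0.02 with Cebpb and 0.11 with Cebpd. The median rho of the list was 0.16 with Cebpd and 0.11 with Cebpb. For each, 14 of 19 were above 0, against 50.4% of all genes with Cebpd and 45.5% with Cebpb. At 0.5 or more were 1 with Cebpb, Dusp1 (0.71), and 2 with Cebpd, Il6 (0.56) and Socs3 (0.525), against 2.60% and 2.77% of all genes. The 5 below 0 with Cebpb were Klf9 (-0.39), Sik1 (-0.28), Per1 (-0.27), Crem (-0.25) and Nr3c1 (-0.07).

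The target genes of PPARγ leaned towards Pparg. Of 39 targets 23 had a row, and 16 of these had a rho above 0 with Pparg, with a median of 0.26, against 49.7% of all genes above 0 and a median of -0.00. A rho of 0.5 or more was found for 4 of 23, against 4.20% of all genes. These were Cd36, a fatty acid transporter (0.65), Fabp4, the adipocyte fatty acid binding protein (0.63), Lpl, lipoprotein lipase (0.52), and Ephx2, an epoxide hydrolase (0.51). The genes Mgll, a monoacylglycerol lipase (-0.54), and Ephx1 (-0.52) were at -0.5 or less, 2 of 23 against 3.77% of all genes. With all values below 1 FPKM treated as equal the median was 0.17. It was 0.22 without cell 12, the cell with the highest mean of the mature adipocyte markers. The EBF genes came close in the count of targets above 0, at lower medians. With Ebf1, 15 of 23 were above 0 at a median of 0.14, against 52.3% of all genes. With Ebf2, 15 of 23 were above 0 at a median of 0.09, against 52.5% of all genes.

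Cell by cell, Pparg and its targets did not always go together. Fabp4 was detected in all 15 cells, from 1.24 in cell 9 to 13.69, the top of the scale, in cells 4 and 13. Cell 13 had the highest Pparg level, but cell 4 had Pparg at 0.20 together with the highest Cd36 level, 9.22, Lpl at 10.08 and Plin2, a lipid droplet coat gene, at 10.14. Conversely, cell 14 had Pparg at 6.25 with Cd36 at 1.89, and cell 8 had Pparg at 4.19 with Cd36 at 2.06 and Plin2 at 0.67. Cells 6 and 12 held both, with Cd36 at 8.20 and 8.76, Fabp4 at 11.96 and 13.26 and Lpl at 10.30 and 10.81. Cebpd had a median rho of -0.20 with the same targets, with 14 of 23 below 0, where 50.4% of all genes were above 0. At -0.5 or less were 3 of 23, against 3.29% of all genes: Fabp5 (-0.60), Plin2 (-0.51) and Cd36 (-0.50). At 0.5 or more was 1, Cpt1a (0.59), against 2.77% of all genes.

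Markers of progenitors and of the stroma leaned against Pparg and towards Zfp423. Of 18 such genes 15 had a row. Other factors leaned as well. With Ebf1, 11 of 15 were below 0 at a median of -0.29, where 52.3% of all genes were above 0. With Cebpd, 12 of 15 were above 0 at a median of 0.15, against 50.4% of all genes. With Pparg, 10 of 15 had a rho below 0, where 49.7% of all genes were above 0. The median was -0.34, against -0.00 for all genes. At -0.5 or less were 3 of 15, against 3.77% of all genes. These were Cd34, a progenitor surface marker (-0.68), and the collagen I genes Col1a1 (-0.60) and Col1a2 (-0.60). The 5 above 0 with Pparg were Icam1 (0.32), Pdgfrb (0.28), Cd81 (0.23), Prrx2 (0.05) and Pdgfra (0.03). Cd34 stood at 3.64 in cell 13 and 2.05 in cell 12, its lowest values, and at 10.54 and 10.15 in cells 2 and 1, where Pparg stood at 0.00. Cell 14, with Pparg at 6.25, had Cd34 at 7.09. Without cell 13, which had the lowest Col1a1, Col1a2 and F3 levels of all cells, the median with Pparg was -0.22, and without cell 12 it was -0.28. With Zfp423, 11 of 15 had a rho above 0 and the median was 0.36, against 52.1% of all genes above 0 and a median of 0.01. Cd34 (0.59), F3, which encodes the surface protein CD142 (0.53), and Col1a2 (0.50) were at 0.5 or more, 3 of 15 against 3.43% of all genes. Cd81 (-0.39), Icam1 (-0.37) and the growth factor receptor gene Pdgfrb (-0.33) went the other way. In the cells with Zfp423, Cd34 stood at 8.41 (cell 10), 10.15 (cell 1), 9.01 (cell 11) and 10.54 (cell 2), but at 2.05 in cell 12. The median with Zfp423 was 0.17 when values below 1 FPKM were treated as equal and 0.18 by Pearson correlation, and it was 0.51 without cell 12. Zfp423 is near 0 in 10 cells, and its ranks there carry little information.

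**Figure D3:**
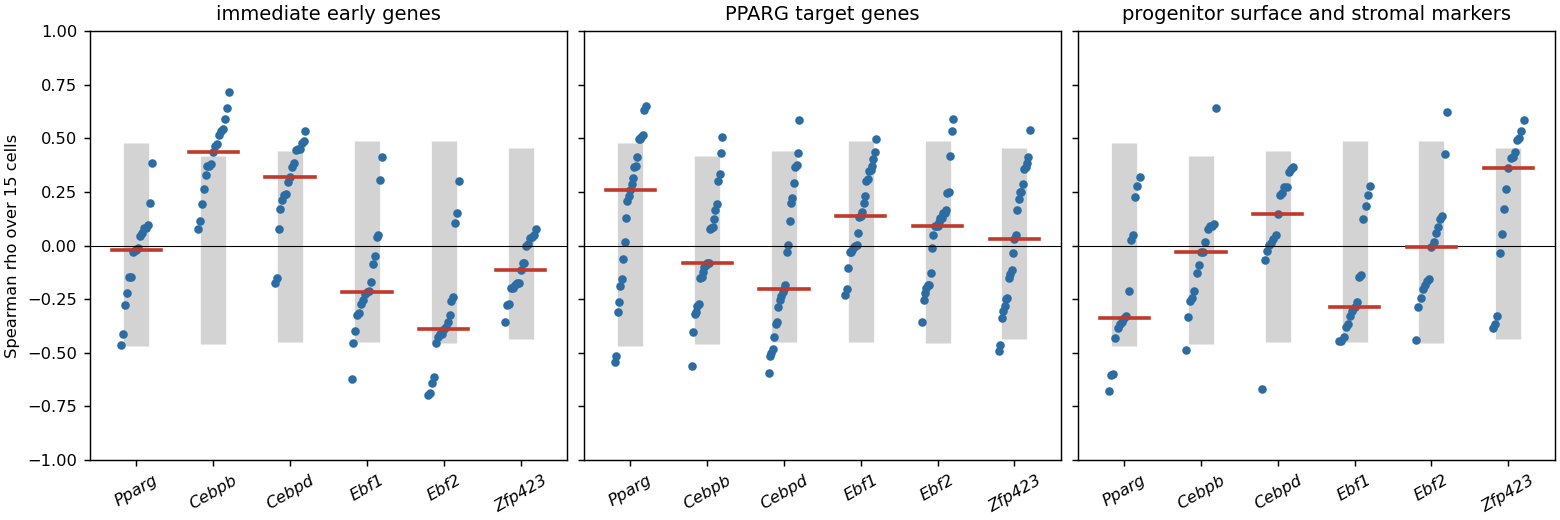
Spearman rho over 15 cells (vertical axis) of each factor (horizontal axis) with the genes of 3 lists, 1 point per gene and a red line at their median. Grey boxes run from the 5th to the 95th percentile of the rho of all genes detected in at least 3 cells. Immediate early genes lie above 0 with Cebpb and mostly below 0 with Ebf2. PPARγ targets lean above 0 with Pparg and, at lower medians, with Ebf1 and Ebf2. Progenitor and stromal markers lean below 0 with Pparg and Ebf1, and above 0 with Zfp423 and, at a lower median, with Cebpd.

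Other regulators of adipogenesis had medians of rho nearer to 0. Of the 19 activators with a row, Klf4, Klf6 and Nfib were detected in all 15 cells, and medians of rho with the 6 factors lay between -0.04 and 0.09. With Ebf1, 13 of 18 were above 0, against 52.3% of all genes, at a median of 0.07. Of the 18 genes listed as repressors that had a row, Ctnnb1, which encodes β-catenin, was detected in all 15 cells and Hes1, Tcf4 and Irf3 in 14 each. The medians lay between -0.11 and 0.05, with single genes far from them in both directions. With Zfp423, 3 of 17 repressors were at -0.5 or less, against 2.71% of all genes: Klf7 (-0.69), Hes1 (-0.60) and Id1 (-0.57), while Ctnnb1 was at 0.64. With Cebpd, 3 of 17 were at -0.5 or less, against 3.29% of all genes: Tcf7l2 (-0.65), Yap1 (-0.61) and Klf7 (-0.60), while Wnt5a was at 0.55. Of the coregulators of PPARγ, 14 with a row, the corepressor gene Ncor1 and the coactivator gene Crebbp were detected in 14 cells each, with medians of 6.02 and 6.79, and the median rho with Pparg was -0.00. In cell 13 the liver X receptor gene Nr1h3 stood at 9.65, above its Pparg level.

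The genes most like each factor were ranked among 3949 genes detected in at least 8 cells, leaving out predicted genes, ribosomal protein genes, small RNAs and genes with near-identical copies. For Pparg the 5 highest were Cox16 (0.75), needed for cytochrome oxidase assembly, the RNA helicase gene Ddx39 (0.74), the tubulin gene Tubb4b (0.72), the HSP90 cochaperone gene Chordc1 (0.70) and Faim (0.70), an inhibitor of apoptosis. The 3 lowest were the Ras regulator Rasa1 (-0.78), Rcn2 (-0.77), which encodes a calcium-binding protein of the endoplasmic reticulum, and the kinesin gene Kif5b (-0.77). Cox16 was at 9.85 in cell 6 and 8.58 in cell 13, but also at 7.80 in cell 4, where Pparg stood at 0.20. Rasa1 was at 7.09 and 6.63 in cells 2 and 7, where Pparg was not detected, and at or below 0.86 in cells 6, 8, 12, 13 and 14, the 5 cells with the highest Pparg levels.

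For Cebpb the highest were the autophagy gene Atg12 (0.77), the amino acid transporter subunit Slc3a2 (0.77), the lysosome-positioning gene Kxd1 (0.75), Sertad1 (0.75) and the survival gene Mcl1 (0.74), and the lowest Taf10 (-0.81), a subunit of general transcription factor complexes, the RNA helicase gene Ddx6 (-0.80) and the chromatin remodelling gene Smarcd2 (-0.77). For Cebpd the highest were the homeobox corepressor gene Tgif1 (0.80), the ubiquitin and SUMO ligase gene Topors (0.77), Fgfr1op2 (0.76), the membrane scission gene Chmp4b (0.70) and the pentraxin gene Ptx3 (0.69). The lowest were the splicing gene Rsrc1 (-0.82), the integrin adaptor talin gene Tln1 (-0.77) and the tRNA synthetase gene Farsa (-0.76). Tgif1 was at 6.97 and 6.88 in cells 10 and 9, the 2 cells with the highest Cebpd levels, and at 0.15 in cell 13, where Cebpd was not detected.

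Ebf1 was followed most closely by the cohesin gene Stag2 (0.79), the glutamate transporter gene Slc1a3 (0.77), the scaffold gene Dlg1 (0.75), the clathrin gene Clta (0.73) and the scramblase gene Ano6 (0.72), and least by the ribosome assembly gene Brix1 (-0.88), Tspan31 (-0.83) and the endosome gene Rab11a (-0.80). Stag2 was highest in cell 5, at 8.90, as Ebf1 was. For Ebf2 the highest were the actin crosslinker filamin gene Flna (0.86), the glycosyltransferase gene B3galnt1 (0.85), the antisense transcript Epb41l4aos (0.82), the dysbindin gene Dtnbp1 (0.79) and the cilium gene Ift81 (0.78). The lowest were the histone chaperone gene Rbbp4 (-0.84), the autophagy receptor gene Tax1bp1 (-0.82) and Ginm1 (-0.80). Rbbp4 was at 7.05 in cell 14 and 7.92 in cell 10, which had little Ebf2, and at 0.16 in cell 1, the highest for Ebf2.

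For Zfp423 the highest were the MAP kinase kinase gene Map2k2 (0.83), the ubiquitin ligase gene Rnf6 (0.77), Washc3 (0.74), which encodes a subunit of an endosomal actin-nucleating complex, Fam32a (0.73) and the splicing gene Rbm5 (0.72). The lowest were Qrich1 (-0.88), the lysosomal gene Litaf (-0.78) and the transport gene Sec22a (-0.77). Map2k2 was at 5.25, 5.12 and 4.35 in cells 12, 10 and 1, the 3 cells with the highest Zfp423 levels, and at 5.11 in cell 15 without Zfp423. Of the listed genes detected in at least 8 cells, none was among the 5 genes most like any factor. Neither was Cebpb, Cebpd, Ebf1 or Ebf2. Genes detected in fewer cells, among them Pparg, Zfp423 and the PPAR and RXR genes, could not appear in this ranking.

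**Figure D4:**
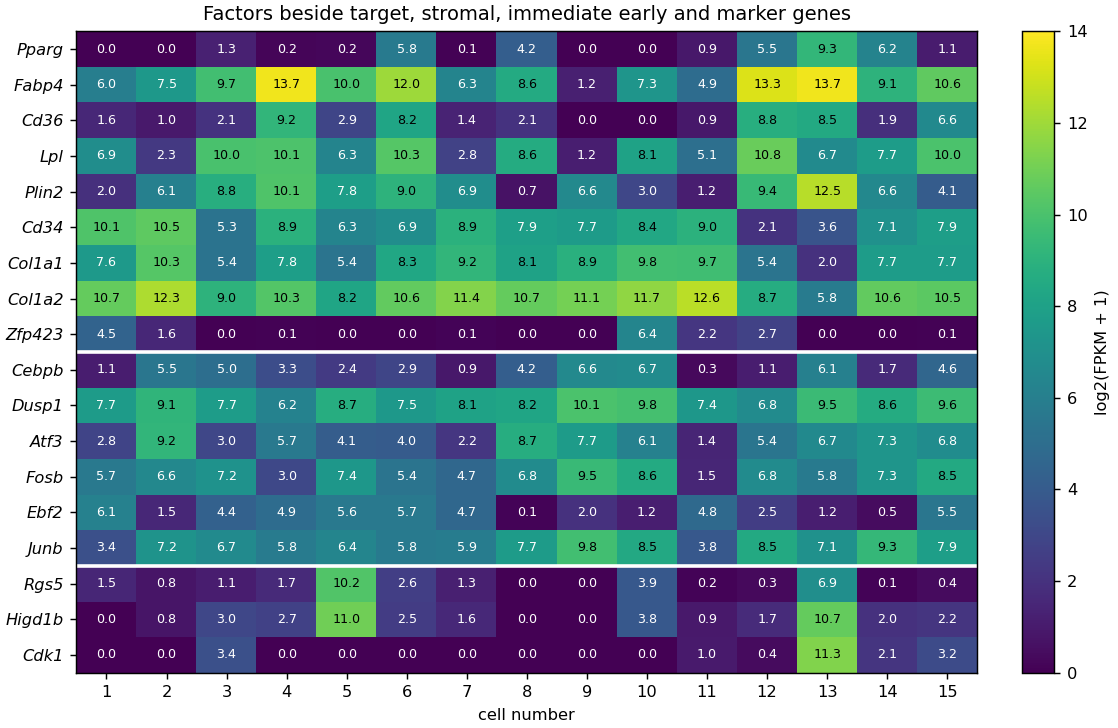
Levels in log2(FPKM + 1), printed in each square, of Pparg with 4 of its targets, 3 stromal genes and Zfp423 (top block), of Cebpb and Ebf2 with 4 immediate early genes (middle block), and of 3 marker genes (bottom block), in each of the 15 cells by cell number. Cell 4 shows high Fabp4, Cd36 and Plin2 with Pparg at 0.2, and cells 5 and 13 are the cells with high Rgs5 and Higd1b, cell 13 also with Cdk1.

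The levels of the factors were also set against measures of the cells themselves. The number of genes above a cell's lowest value had a rho of 0.31 with Cebpb, -0.31 with Ebf1 and -0.34 with Ebf2, and between -0.06 and -0.04 with Cebpd, Zfp423 and Pparg. The mean of 14 housekeeping genes had a rho of -0.51 with Cebpb and 0.36 with Pparg. The mural mean had a rho of 0.43 with Cebpb and 0.42 with Ebf1, and the cell cycle mean one of 0.36 with Pparg and -0.39 with Zfp423. The part of these measures in the patterns above was not tested.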

How the data were processed

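The table used holds 1 column per cell, tied to its sample through the number shared with the sample title. The submitters' processing notes name TopHat2, Cufflinks and the GRCm38 build, without versions. The deposited values are FPKM on a log2 scale, log2(FPKM + 1), as inferred from the values: they end at 13.69, and the cells then sum to 592948 FPKM on average, against 12675749 under a natural logarithm. Sorted values of the cells were equal within 0.0354 above 0.2, so the authors' deposited values had been quantile-normalized, which no label records. The design had assumed linear FPKM, and thresholds were moved to the log2 scale. Genes were called detected at 1 FPKM, with exact 95% intervals for shares of cells. Spearman correlations were computed over 15 cells for 15 pairs of factors, 66 combinations of 11 gene lists and 6 factors (genes detected in at least 3 cells), and all genes (Python 3.11.15, scipy 1.17.1), and tested on simulated data. Named were the 6 factors, the 5 highest and 3 lowest correlates of each, their relatives, widely detected list genes and markers of the extreme cells. Genes picked out for single cells were chosen after their values were seen. The members and lists were chosen with earlier results of these data known. The reference table held the gene ID of 8431 of the 8446 rows (8441 distinct IDs). The replicates are cells, so any spread is between cells and not between animals.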

Additional observations from a re-analysis of the deposited data

How the results depend on the processing

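The detection of the factors and their leading correlations kept their direction under the alternatives run. At 5 FPKM in place of 1 FPKM, Ebf2 was detected in 53.3% of cells, and the Pearson correlation of Cebpb and Cebpd was 0.13. Leaving out each cell in turn moved rho between 0.63 and 0.75 for Ebf1 and Ebf2, -0.72 and -0.51 for Pparg and Cebpd, 0.31 and 0.65 for Cebpb and Cebpd, and -0.63 and -0.34 for Pparg and Zfp423. Outside these, 6 values moved by more than their spread: Cebpb with Zfp423 was -0.58 without cell 10 and -0.01 by Pearson, Cebpd with Ebf2 was -0.34 and Ebf2 with Zfp423 -0.30 without cells 1, 11 and 14, and 2 list medians over few genes moved when only genes detected in at least 8 cells were used. The cause was not tested. The alternative that treats values below 1 FPKM as equal, the one that undoes the length division and the one without cell 12 were chosen after seeing the data. No paired analysis was possible because all cells belong to 1 group. Depth is unknown, so a value of 0 may be a missed molecule, and with 15 cells from an unknown number of mice these relations describe these cells only.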
